A study of Mus musculus with 8 samples.

Results

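The genes of potassium, calcium, sodium and transient receptor potential (TRP) channels were followed in cells of the embryonic mouse gut, sorted for a fluorescent reporter at the Bapx1 locus. They were chosen by symbol, as all genes of the array whose names begin with Kcn and a letter, Cacna, Cacnb or Cacng, Scn and a digit, or Trpa, Trpc, Trpm or Trpv and a digit, with Kcnj8 left out. This gave 141 genes with 308 probes, of 19057 named genes and 45281 probes in all. The rule reads symbols only, but it was written with earlier results of these data in view.

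Cells were taken from the gut at E12.5, dissociated with enzymes and isolated by fluorescence-activated cell sorting (FACS) for enhanced green fluorescent protein (EGFP). Their total RNA was hybridised to Illumina MouseWG-6 v2 arrays, 1 array a sample, with 4 wildtype and 4 Bapx1 null samples that the methods describe as biological replicates. All embryos were of strain C57BL/6J;129 and all carried EGFP at the Bapx1 locus. Wildtype embryos had the tm2.Tlu allele, in which EGFP follows an internal ribosomal entry site behind an intact Bapx1 coding region, and the study writes this genotype in its background with a single targeted allele. Bapx1 null embryos were homozygous for the tm4.Tlu allele, in which EGFP was inserted directly after the start codon and disrupts the coding region. As written, the genotypes carried unequal numbers of EGFP copies. The sort was meant to collect only cells with an active Bapx1 locus, but markers of other cell types were also measured, as given below. Whether a sample pooled several embryos is not stated in the labels or the methods.

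Ion channels are membrane proteins that let selected ions pass and so set the membrane potential and calcium entry of a cell. Potassium channels hold the potential negative or bring it back after excitation, voltage-gated calcium and sodium channels carry inward current, and TRP channels admit cations in response to receptors, lipids, temperature or internal calcium. In the gut wall, smooth muscle and interstitial cells of Cajal use such channels to generate and pace contraction. Many channels consist of a pore-forming subunit and accessory subunits that alter its gating or its transport to the membrane. Bapx1, whose current symbol is Nkx3-2, is a homeobox factor that acts in gut mesenchyme, in the spleen and along the axial skeleton.

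Promoter sequence is shown for Kcne4 and Kcne1l, which encode small accessory subunits of voltage-gated potassium channels and are both among the genes that changed between the genotypes. The stretches come from the RefSeq promoter table of GRCm38.p6, written 5′ to 3′ on the strand of the gene, and the capitals mark CAGCTG, an E-box, and TAAGTG, a core recognised by NK homeodomain proteins. The Kcne4 stretch lies at chr1:78816752-78816781 on the plus strand, from -159 to -130 relative to the transcription start, and that of Kcne1l at chrX:142306289-142306318 on the minus strand, from -120 to -91.
Kcne4: cttctctcttcaCAGCTGcagagttcagag
Kcne1l: tacCAGCTGtcccctttccccTAAGTGgcc
Both motifs were searched on both strands from 250 bases before to 50 bases after the start. Among 14 windows of 9 of the 10 channel genes whose genotypes did not overlap, CAGCTG was present in 3, belonging to Kcne1l, Kcne4 and Kcnip3, and TAAGTG in 1, that of Kcne1l. Over all 32851 windows the shares were 16.3% for CAGCTG and 9.20% for TAAGTG. Such matches describe the letters only. Kcnk3 had no entry.

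Most channel genes gave no signal above background in these cells. A probe was taken as detected when its detection score was above 0.99. By this limit 50 of the 141 genes were detected on at least 1 array and 91 on none. Of the 50, 36 had a probe that was detected on at least 4 of the 8 arrays and were tested, whereas 14 were detected on 1 to 3 arrays only. The wildtype arrays detected 36, 40, 34 and 39 channel genes (replicates 1 to 4) and the Bapx1 null arrays 33, 31, 36 and 39. At a limit of 0.95 these numbers were 54, 53, 56 and 52 in wildtype against 49, 42, 55 and 56 in Bapx1 null. The ranges of the genotypes overlapped at either limit, and Bapx1 null replicate 2 had the lowest number at both.

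**Figure D1:**
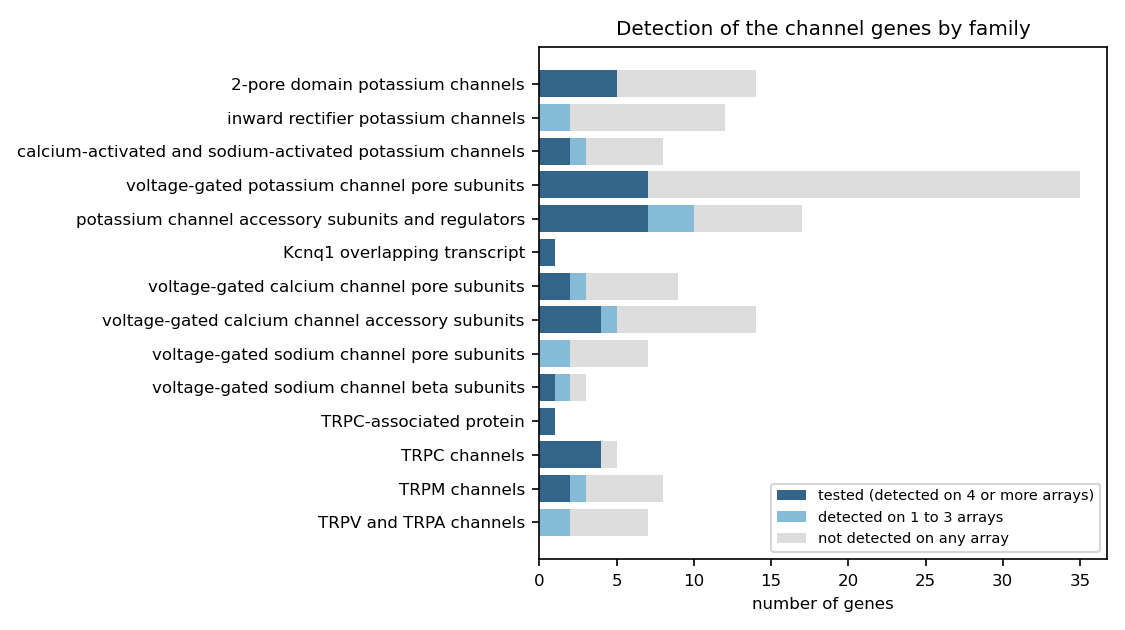
Number of channel genes (x axis) in each family (y axis), split into those tested (detected on 4 or more arrays), those detected on 1 to 3 arrays and those not detected on any array. In all, 36 genes were tested and 91 were not detected, and 3 families had no tested member. Kcnj8, an inward rectifier gene outside the rule, is not counted.

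Detection differed between the families. Among the voltage-gated potassium channel pore subunits, which open on depolarisation, 7 of 35 genes were tested and 28 were not detected. The 2-pore domain potassium channels, which carry the resting leak current, had 5 tested genes of 14, and the TRPC channels, which open downstream of receptors, 4 of 5. None of the 12 inward rectifiers, 7 voltage-gated sodium channel pore subunits and 7 TRPV and TRPA channels was tested, and each of these families had 2 genes detected on at least 1 array. Kcnj8, an inward rectifier gene left out by the rule and so not among the 12, was detected on all arrays of both genotypes and is given below. The pore subunits Kcnq1, Kcnma1 and Cacna1c were not detected on any array (chosen after their values were seen). These are the potassium channel regulated by Kcne subunits, the large-conductance calcium-activated potassium channel and the main L-type calcium channel of smooth muscle. A probe that is not detected shows only that its signal was not above background, not that the transcript was lacking.

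In Bapx1 null gut cells, 4 channel genes rose: the leak potassium channel gene Kcnk3, the cation channel gene Trpm5 and the accessory subunit genes Kcne1l and Kcne4. The rise was 5.54-fold for Kcnk3, whose wildtype mean includes 2 arrays at background, 3.14-fold for Trpm5, 1.91-fold for Kcne1l and 1.79-fold for Kcne4 on the scale of background-corrected, quantile-normalized log2 intensity. No channel gene was called lower. The 4 genes were 4 of 36 tested, where 0.542% of all 9784 genes tested were higher and 0.256% were lower (limma, with Benjamini-Hochberg adjustment over all genes and a threshold of 0.05). At an unadjusted p under 0.05, 12 channel genes were higher and 4 lower, against 17.2% and 9.62% of all genes. The calls were sensitive to single arrays. None of the 4 passed when any 1 wildtype array or Bapx1 null replicate 3 was left out (limma, adjusted p from 0.0607 to 0.112 over these 5 fits). The difference of each kept its direction. Calls over all genes fell as well, from 78 to 4, 7, 31 and 4 without wildtype replicates 1 to 4. Without Bapx1 null replicate 3 they fell to 6. Without Bapx1 null replicate 4, 8 channel genes were higher and 1 lower, in a fit that called 1199 of all 9784 genes, 790 of them higher, against 78 with all arrays.

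Kcnk3, on chromosome 5, which also carries Bapx1, encodes an acid-sensitive 2-pore domain channel that helps to set the resting potential. Its normalized log2 intensity was 4.81, 5.81, 5.12 and 5.83 on wildtype replicates 1 to 4 and 6.71, 8.05, 8.54 and 8.14 on Bapx1 null replicates 1 to 4. Every Bapx1 null array was above every wildtype array, and Bapx1 null replicate 1 was the lowest of its genotype. The means were 5.39 ± 0.51 (SD, n = 4) and 7.86 ± 0.80 (SD, n = 4), a difference of 2.47 ± 0.39 (SE; limma, adjusted p = 0.0276). The probe was detected on 2 of 4 wildtype arrays and on all 4 Bapx1 null arrays, so part of its wildtype level is background. In the deposited raw intensities, wildtype arrays read 70.8, 100.5, 68.2 and 100.6 and Bapx1 null arrays 124.9, 135.5, 366.7 and 367.9. They did not overlap either, with Bapx1 null replicates 3 and 4 well above replicates 1 and 2. Over 21 alternative settings the difference ranged from 1.75 to 2.85 and the adjusted p from 0.00591 to 0.184, and 9 settings passed.

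Trpm5, on chromosome 7, encodes a channel for monovalent cations that opens on a rise of internal calcium and is known from taste cells and the tuft cells of the gut epithelium. Its level was 5.64, 5.90, 5.98 and 6.45 in wildtype against 6.91, 8.21, 7.81 and 7.66 in Bapx1 null. Again the genotypes did not overlap and Bapx1 null replicate 1 was the lowest of its group. The difference was 1.65 ± 0.27 (SE; limma, adjusted p = 0.0312), and the probe was detected on all 8 arrays. Raw wildtype intensities of 107.5, 105.5, 97.4 and 137.9 stood against 137.7, 147.7, 227.4 and 273.8 in Bapx1 null, so that wildtype replicate 4 and Bapx1 null replicate 1 met. A second Trpm5 probe was detected on no wildtype array and on 2 Bapx1 null arrays and was not tested. Over 22 alternative settings the difference ranged from 0.95 to 1.90 and the adjusted p from 0.0118 to 0.226, and 10 settings passed.

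Of 12 genes in the tuft cell marker list, 11 were on the array and 8 were not detected on any array, the defining factor gene Pou2f3 and the structural gene Avil among them. The mean level of the 2 tested tuft cell markers was 5.91 to 6.37 in wildtype and 6.01 to 6.40 in Bapx1 null. Most markers of that cell type were thus not above background in either genotype, which does not show that such cells were lacking. The part of tuft cells in the Trpm5 result was not tested. Markers of the gut epithelium, 6 of 16 tested, were at 6.71 to 7.57 in wildtype and 6.04 to 6.60 in Bapx1 null, and Epcam and Vil1 were not detected on any array.

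**Figure D2:**
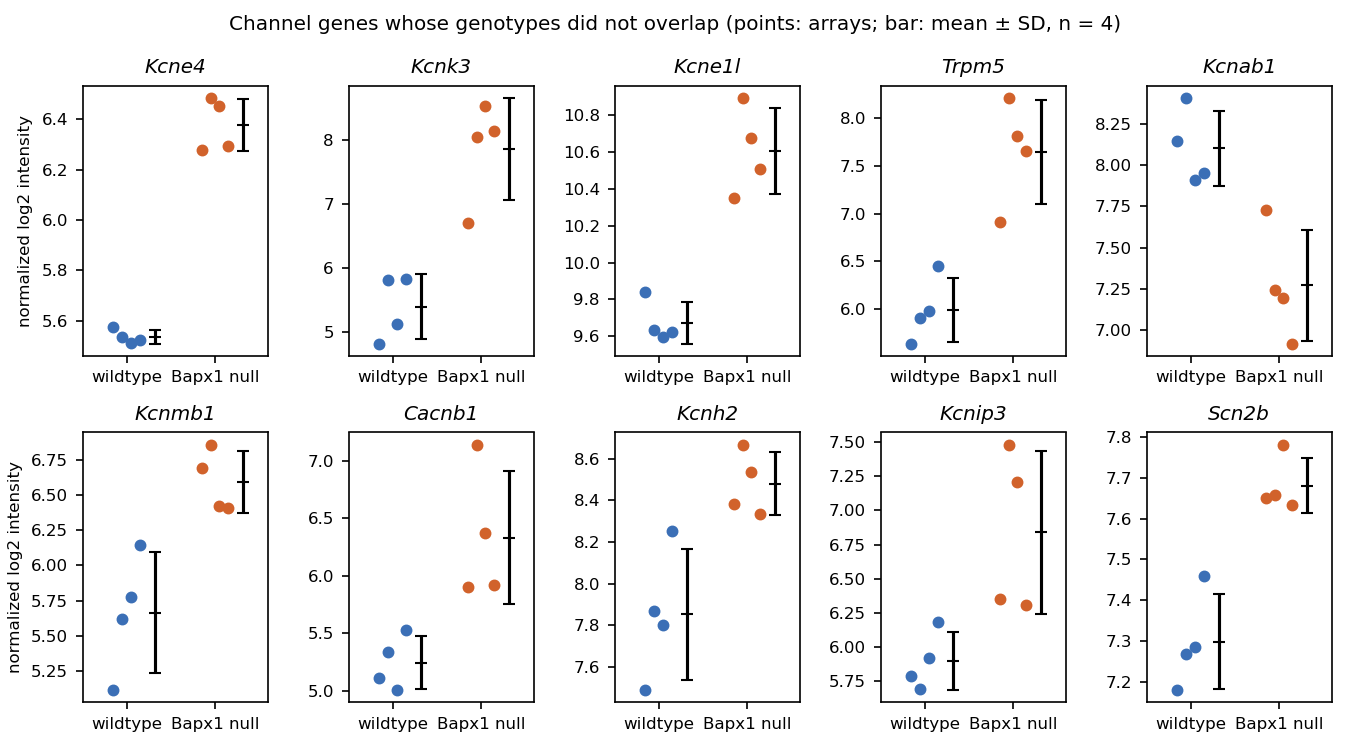
Normalized log2 intensity (y axis, separate scale for each gene) of the 10 channel genes whose genotypes did not overlap, in wildtype (blue) and Bapx1 null (orange), with 1 point per array in the order of replicates 1 to 4 and the mean ± SD (n = 4) beside them. Kcnab1 is the only gene of the 10 with Bapx1 null below wildtype, and Kcnk3 has the widest gap between the means (2.47).

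The accessory subunits of potassium channels held both other genes that rose. Kcne1l, on the X chromosome, encodes a single-span subunit that modulates Kcnq1 channels. It was measured at 9.84, 9.63, 9.60 and 9.62 in wildtype against 10.35, 10.89, 10.68 and 10.51 in Bapx1 null, a difference of 0.93 ± 0.15 (SE; limma, adjusted p = 0.0297). Its wildtype arrays lay close together apart from replicate 1, and every Bapx1 null array was higher. Raw intensities of wildtype (1290.4, 906, 792.5 and 967.6) and of Bapx1 null (1187.9, 957.6, 1623.8 and 1687.6) did overlap. Over 22 alternative settings the adjusted p ranged from 0.0249 to 0.313 and the difference from 0.76 to 1.69, and 11 settings passed.

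As Kcne1l is X-linked, sex-linked transcripts are given beside it (chosen after their values were seen). Xist, the RNA of the inactive X chromosome, was at 11.70, 11.23, 11.47 and 11.74 in wildtype against 4.37, 10.95, 4.98 and 4.31 in Bapx1 null. Bapx1 null replicate 2, the only Bapx1 null array with Xist near the wildtype level, had the highest normalized Kcne1l level of the 8 arrays. In raw intensity that array had the lowest Kcne1l value of the Bapx1 null arrays (957.6). After normalization it was also the highest Bapx1 null array for 23 of the 36 tested channel genes. The Y-linked gene Eif2s3y was at 10.03, 10.40, 9.84 and 6.91 in wildtype against 10.87, 9.96, 11.73 and 10.94 in Bapx1 null. Xist was thus high on all 4 wildtype arrays and on 1 of 4 Bapx1 null arrays. Wildtype replicates 1 to 3 and Bapx1 null replicate 2 had both Xist and Eif2s3y high, so these samples appear to hold RNA of both sexes. The part of sex in the result for Kcne1l, and in every other comparison of the genotypes here, was not tested.

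Kcne4, on chromosome 1, encodes a related subunit that inhibits Kcnq1 channels. Its level was 5.57, 5.53, 5.51 and 5.52 in wildtype against 6.28, 6.48, 6.45 and 6.30 in Bapx1 null, and it was detected on all 8 arrays. The wildtype values were nearly equal and the genotypes were far apart relative to their spread, with a difference of 0.84 ± 0.12 (SE; limma, adjusted p = 0.0198). These levels were near background, as the lowest detected level was 5.34, 5.43, 5.49 and 5.38 on wildtype replicates 1 to 4. On Bapx1 null replicates 1 to 4 it was 5.69, 6.33, 5.68 and 5.47. The small wildtype spread was thus measured close to this limit, and its cause was not tested. The raw wildtype intensities were 104, 89.4, 79.7 and 87.1, and those of Bapx1 null 102.7, 71.8, 106.1 and 126.8. The separation was thus present after normalization and not in the raw intensities, where Bapx1 null replicate 2 was the lowest of all. With median and MAD (median absolute deviation) scaling the direction turned, and the difference was -0.25 once the median over genes had been subtracted. The adjusted p ranged from 0.0124 to 0.564 over 22 alternative settings, of which 11 passed.

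**Figure D3:**
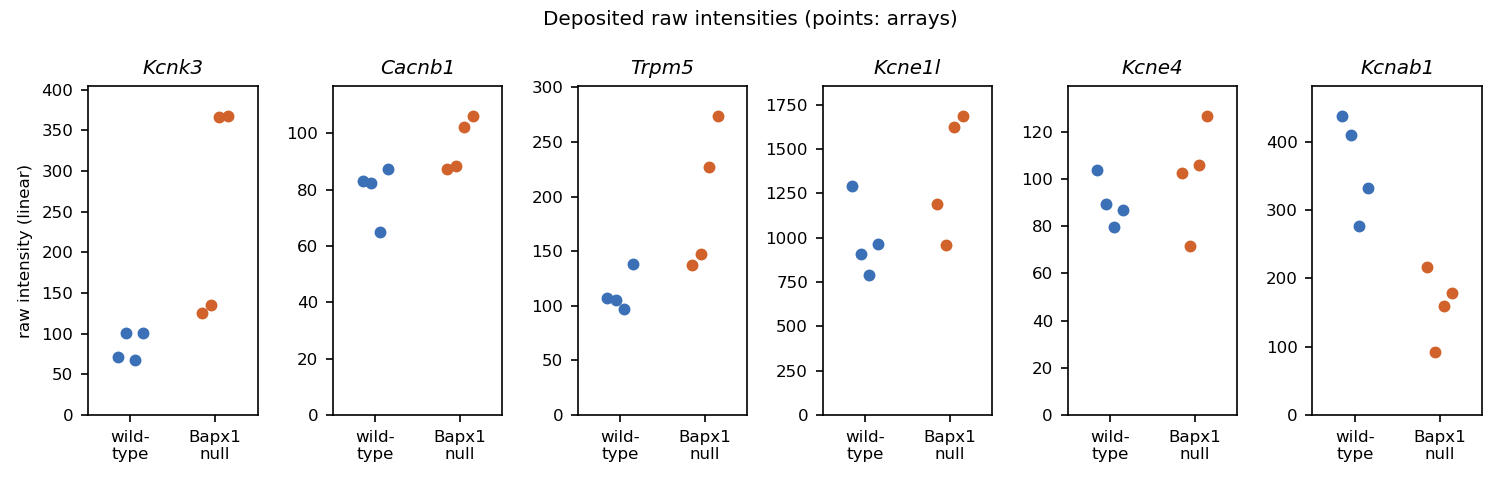
Deposited raw intensity (y axis, linear from 0, separate scale for each gene) of 6 channel genes in wildtype (blue) and Bapx1 null (orange), with 1 point per array in the order of replicates 1 to 4. The genotypes do not overlap for Kcnk3, Cacnb1 and Kcnab1, and they do for Trpm5, Kcne1l and Kcne4.

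The other accessory subunits did not pass the test. Kcnab1, whose product binds to the cytoplasmic side of voltage-gated potassium channels and speeds their inactivation, was at 8.14, 8.40, 7.91 and 7.95 in wildtype against 7.73, 7.24, 7.20 and 6.92 in Bapx1 null. Of the 36 tested channel genes it alone had all Bapx1 null arrays below all wildtype arrays. The difference was -0.83 ± 0.19 (SE; limma, adjusted p = 0.0785). Its raw intensities did not overlap either, at 276.9 to 437.9 in wildtype and 92.5 to 216.1 in Bapx1 null, and a second probe gave -1.26. Of all genes, 9.27% were likewise lower in raw intensity without overlap. Kcnab1 passed in 2 of 22 alternative settings, at an adjusted p of 0.0395 to 0.340, those 2 leaving out Bapx1 null replicate 1 or 4.

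Kcnmb1, the beta subunit of the large-conductance calcium-activated potassium channel in smooth muscle, had levels of 5.11, 5.62, 5.77 and 6.15 in wildtype against 6.69, 6.86, 6.42 and 6.41 in Bapx1 null. It was detected on 3 of 4 wildtype arrays and differed by 0.93 ± 0.22 (SE; limma, adjusted p = 0.0791). Kcnip3, a calcium-binding protein that interacts with voltage-gated potassium channels and also acts on transcription, was at 5.79, 5.70, 5.92 and 6.18 in wildtype against 6.35, 7.48, 7.21 and 6.31 in Bapx1 null. Bapx1 null replicates 2 and 3 stood above the rest, and the difference of 0.94 ± 0.27 did not pass (adjusted p = 0.109). Raw intensities of both Kcnmb1 and Kcnip3 overlapped between the genotypes. Across this family 2 of 7 tested genes were called higher, 5 were above wildtype at any p and 2 below.

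The remaining potassium channel genes gave no call. Of the voltage-gated pore subunits, 3 of 7 were above wildtype and 4 below, and differences ranged from -0.61 to 0.63. Kcnh2, which encodes a channel that repolarises heart and smooth muscle cells, was at 7.49, 7.87, 7.80 and 8.25 in wildtype against 8.38, 8.67, 8.54 and 8.33 in Bapx1 null. The genotypes were narrowly apart, with 0.63 ± 0.17 (SE; limma, adjusted p = 0.105), and a second probe gave 0.80. In raw intensity Kcnh2 overlapped between the genotypes. Kcna6, a pore subunit of delayed rectifier channels, differed by 0.60 ± 0.24 (adjusted p = 0.162) with overlapping genotypes. Kcnk2, a leak channel opened by membrane stretch, was at -0.47 ± 0.19 (adjusted p = 0.163). The 3 other tested leak channel genes, Kcnk1, Kcnk5 and Kcnk6 (chosen after their values were seen), differed by -0.02, 0.00 and 0.09, none of them past the test. Kcnn1, a small-conductance calcium-activated channel, differed by 0.18 (adjusted p = 0.472). Kcnu1, a channel known from sperm, differed by 0.53 (adjusted p = 0.323) and was detected on 2 arrays of each genotype. Kcnq1ot1, a non-coding RNA that runs antisense to Kcnq1 and matched the rule by its symbol only, differed by -0.04 ± 0.15 (adjusted p = 0.879).

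Calcium and sodium channel genes likewise gave no call. The pore subunits of the low-voltage-activated, T-type calcium channels were the tested calcium channel pores. Cacna1h was at 10.49 to 10.88 in wildtype and 10.40 to 11.02 in Bapx1 null, and Cacna1g at 9.32 to 10.05 and 9.66 to 10.32. Both genes overlapped between the genotypes, with differences of -0.06 ± 0.17 (adjusted p = 0.813) and 0.39 ± 0.21 (adjusted p = 0.239), and a second Cacna1g probe gave -0.07. Cacnb1, a cytosolic subunit that brings calcium channel pores to the membrane and is best known from skeletal muscle, was at 5.12, 5.34, 5.01 and 5.53 in wildtype against 5.90, 7.14, 6.37 and 5.92 in Bapx1 null. It differed by 1.09 ± 0.27 (SE; limma, adjusted p = 0.0860), was detected on 1 of 4 wildtype arrays, so that its wildtype mean is largely background, and did not overlap in raw intensity, where the gap was between 87.4 and 87.5. Cacna2d1, an extracellular accessory subunit, differed by 0.38 ± 0.15 (adjusted p = 0.157). Scn2b, the only tested sodium channel gene, encodes a beta subunit of voltage-gated sodium channels and was at 7.18, 7.27, 7.28 and 7.46 in wildtype against 7.65, 7.66, 7.78 and 7.63 in Bapx1 null. Its genotypes were apart, by 0.38 ± 0.12 (adjusted p = 0.121), and its 3 kept probes gave 0.38 to 0.46. This separation was present after normalization only, since the raw intensities overlapped, with Bapx1 null replicate 2 the lowest of all arrays (111.5).

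Among the other TRP genes, Trpc4 and Trpc6, cation channels opened downstream of muscarinic receptors in gut smooth muscle, differed in opposite directions without passing the test. Trpc4 was at 7.54, 8.26, 7.71 and 8.41 in wildtype against 8.09, 8.84, 8.83 and 8.67 in Bapx1 null, a difference of 0.63 ± 0.24 (limma, adjusted p = 0.149). Trpc6 was at 6.35, 5.84, 5.67 and 6.40 in wildtype against 5.61, 5.71, 5.46 and 5.70 in Bapx1 null, a difference of -0.45 ± 0.19 (adjusted p = 0.168). The Trpc6 probe was detected on all 4 wildtype arrays and 1 Bapx1 null array, and both genes overlapped between the genotypes. Trpm7, a magnesium-permeable channel with a kinase domain, differed by 0.08 ± 0.21 (adjusted p = 0.822), while its other kept probe gave -0.74. Trpc4ap, an associated protein and not a channel, differed by 0.30 ± 0.16 (adjusted p = 0.249).

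**Figure D4:**
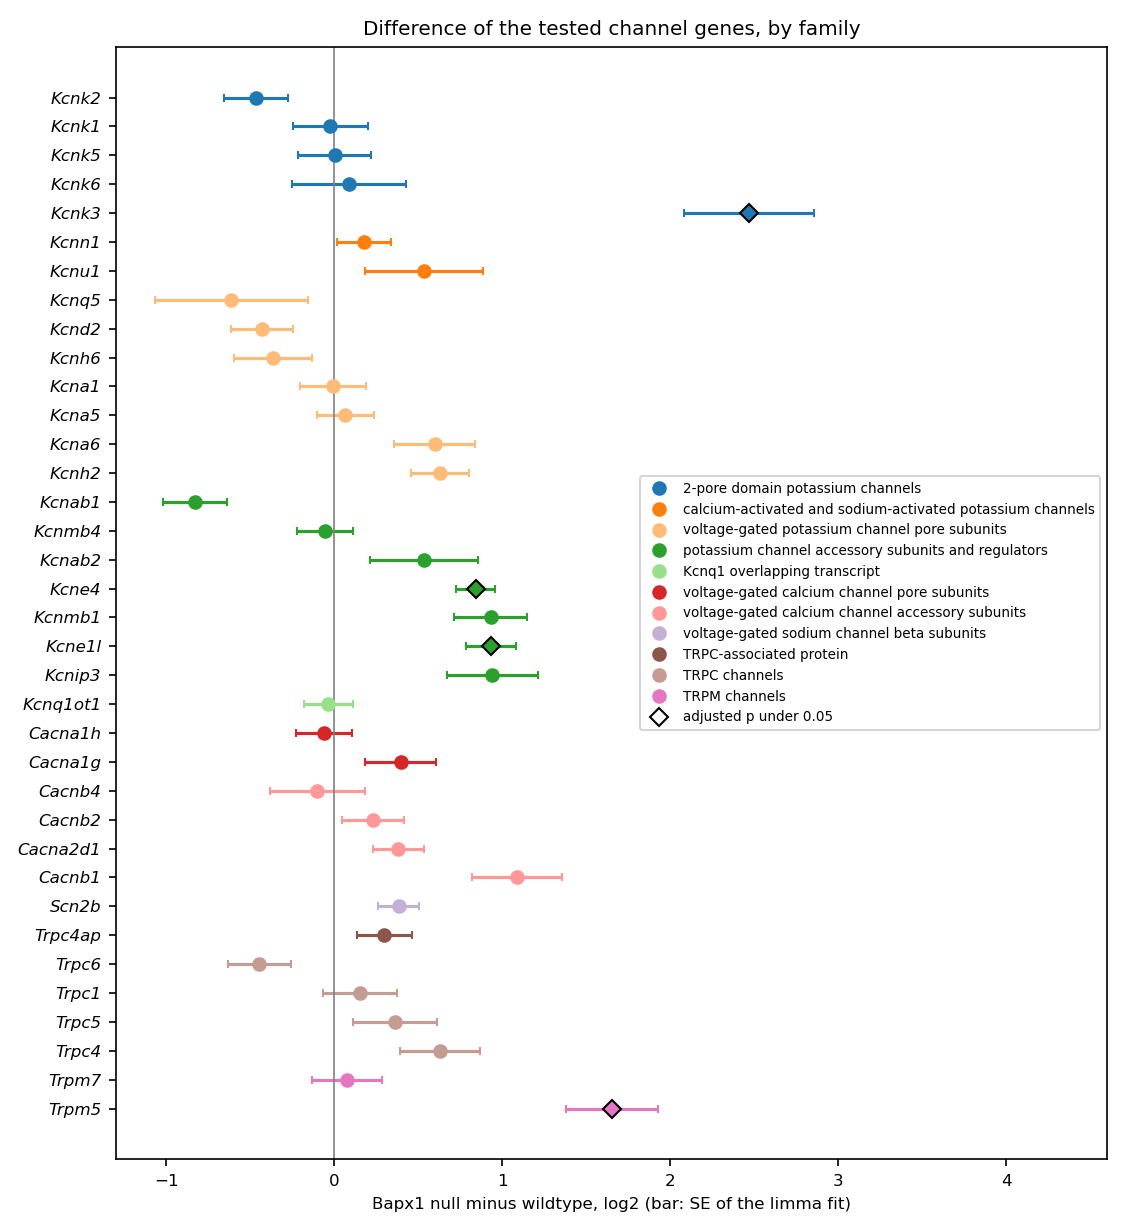
Difference in normalized log2 intensity (x axis, Bapx1 null minus wildtype, bar: SE of the limma fit) for each of the 36 tested channel genes (y axis), coloured by family, with black-edged diamonds for an adjusted p under 0.05. The diamonds are Kcnk3 (2.47), Trpm5 (1.65), Kcne1l (0.93) and Kcne4 (0.84), and 24 of the 36 genes lie above 0.

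Over the 36 tested genes, 24 were above wildtype and 12 below, where 57.2% of all genes were above. The balance turned under other settings, with 14 above and 22 below after median and MAD scaling (the median over genes subtracted) and 17 above and 19 below with the share of detected probes as a model term. The median difference was 0.20 for the channel genes and 0.07 for all genes, and the median size of a difference was 0.39 and 0.28. The genotypes did not overlap for 9 channel genes with Bapx1 null higher and 1 with Bapx1 null lower, while 26 overlapped. Of all genes, 12.2% and 6.36% did not overlap in these directions. In raw intensities 2 channel genes were higher without overlap (Kcnk3 and Cacnb1) and 4 lower (Kcnab1, Kcnd2, Kcnh6 and Kcnk1, the last 3 chosen after their values were seen), against 0.276% and 9.27% of all genes. The filter also admits a gene detected in 1 genotype only, and 11 of the 36 were not detected on all 8 arrays. Of the 25 genes with a probe detected on all 8 arrays, 3 rose and 0 fell by the adjusted p (0.59% and 0.0723% of all such genes), and 19 were above wildtype.

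Signal over background differed between the arrays and moved with the channel genes. The wildtype arrays detected 38.2% to 40.0% of all probes and the Bapx1 null arrays 31.0% to 38.5%, with replicate 2 the lowest. That array had a 75th percentile of raw intensity of 91.3, where the others had 160.7 to 249.2. Bapx1 null replicate 2 was the highest of the 4 Bapx1 null arrays for 23 of the 36 tested channel genes (63.9%), against 42.5% of all genes. Without that array the 4 calls stayed, at differences of 2.41 for Kcnk3, 1.47 for Trpm5, 0.84 for Kcne1l and 0.81 for Kcne4. With each array's share of detected probes as a model term none of the 4 passed, at differences of 2.41, 1.31, 0.76 and 0.77 in the same order. The probe for Bapx1 itself was not well above background in wildtype (mean 4.47) and was detected on all 4 Bapx1 null arrays (mean 6.94), at least 2.88-fold higher, the mean there being set against the lowest detected level of the wildtype arrays (limma, adjusted p = 0.00629). Insertion behind the start codon leaves transcribed Bapx1 sequence in place, and where this probe lies was not examined, so its signal is no check of the genotype labels.

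Markers of other cell types also differed between the genotypes. Smooth muscle markers, 12 of 15 tested, had a mean level of 9.39 to 10.02 in wildtype and 10.48 to 10.80 in Bapx1 null, with 1 gene called higher, 11 above wildtype, and Cnn1 and Synpo2 not detected on any array. Mural cell markers, 7 of 8 tested, were at 7.75 to 7.81 and 8.17 to 8.63, with 1 called higher and Higd1b not detected. The called mural cell marker was Kcnj8, itself a potassium channel gene that the rule left out. Both lists were without overlap and higher in Bapx1 null. Interstitial cells of Cajal markers (5 of 5 tested) were at 10.56 to 10.82 and 10.56 to 10.92, and gut mesenchyme markers (14 of 16) at 9.81 to 10.06 and 9.86 to 10.24. Of the mesenchyme markers 13 were detected on all 8 arrays and Gli1 and Tbx5 on none. Enteric neuron markers (12 of 24 tested) were at 7.14 to 7.48 and 6.76 to 7.49, and Prph and Snap25 were among 7 that were not detected. Markers of platelets (5 of 13 tested, all 5 called lower) were at 7.26 to 9.64 in wildtype and 5.30 to 5.96 in Bapx1 null, and those of hepatocytes (6 of 12 tested, 1 called lower) at 6.23 to 10.01 and 5.04 to 6.03. Macrophage and leukocyte markers (9 of 16 tested, 2 called lower) were at 6.78 to 7.60 and 5.41 to 6.84, and erythroid markers (6 of 13 tested, 1 called lower) at 7.35 to 8.77 and 5.31 to 7.15. Chondrogenic and skeletal muscle markers (4 of 13 tested, none called, all 4 below wildtype) were at 8.40 to 9.93 and 7.20 to 8.46, endothelial markers (6 of 12 tested, none called, 5 below) at 6.49 to 7.35 and 5.96 to 6.95, and mesothelial markers (6 of 8 tested, none called, 5 below) at 8.03 to 9.17 and 7.79 to 8.76. Myod1 and Ckm of skeletal muscle, Kdr of endothelium and Msln of mesothelium were not detected on any array. The part of these cell types in the channel results was not tested, and in such bulk samples a changed number of cells of a type and changed RNA per cell cannot be told apart.

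Outside the symbol rule, 99 genes of ion transport and calcium handling were examined, of which 58 were tested. The inward rectifier gene Kcnj8, which encodes the pore of a channel closed by ATP and also stands in the mural cell list, rose from 7.34, 7.59, 7.63 and 7.75 in wildtype to 8.56, 9.41, 9.20 and 9.08 in Bapx1 null. Its difference was 1.48 ± 0.19 (SE; limma, adjusted p = 0.0198), and it was the only gene of this list called, with 0 called lower. Slc8a1, a sodium-calcium exchanger, differed by 0.61 (adjusted p = 0.0907), Mcu, the calcium channel of mitochondria, by 0.89 (adjusted p = 0.105) and Atp1b2, a subunit of the sodium pump, by 1.05 (adjusted p = 0.105). In these 3 genes the genotypes did not overlap after normalization, while their raw intensities did. Of the 58 genes, 38 were above wildtype with a median of 0.22 (57.2% of all genes were above), and 12 were higher and 3 lower without overlap (12.2% and 6.36% of all genes).

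**Figure D5:**
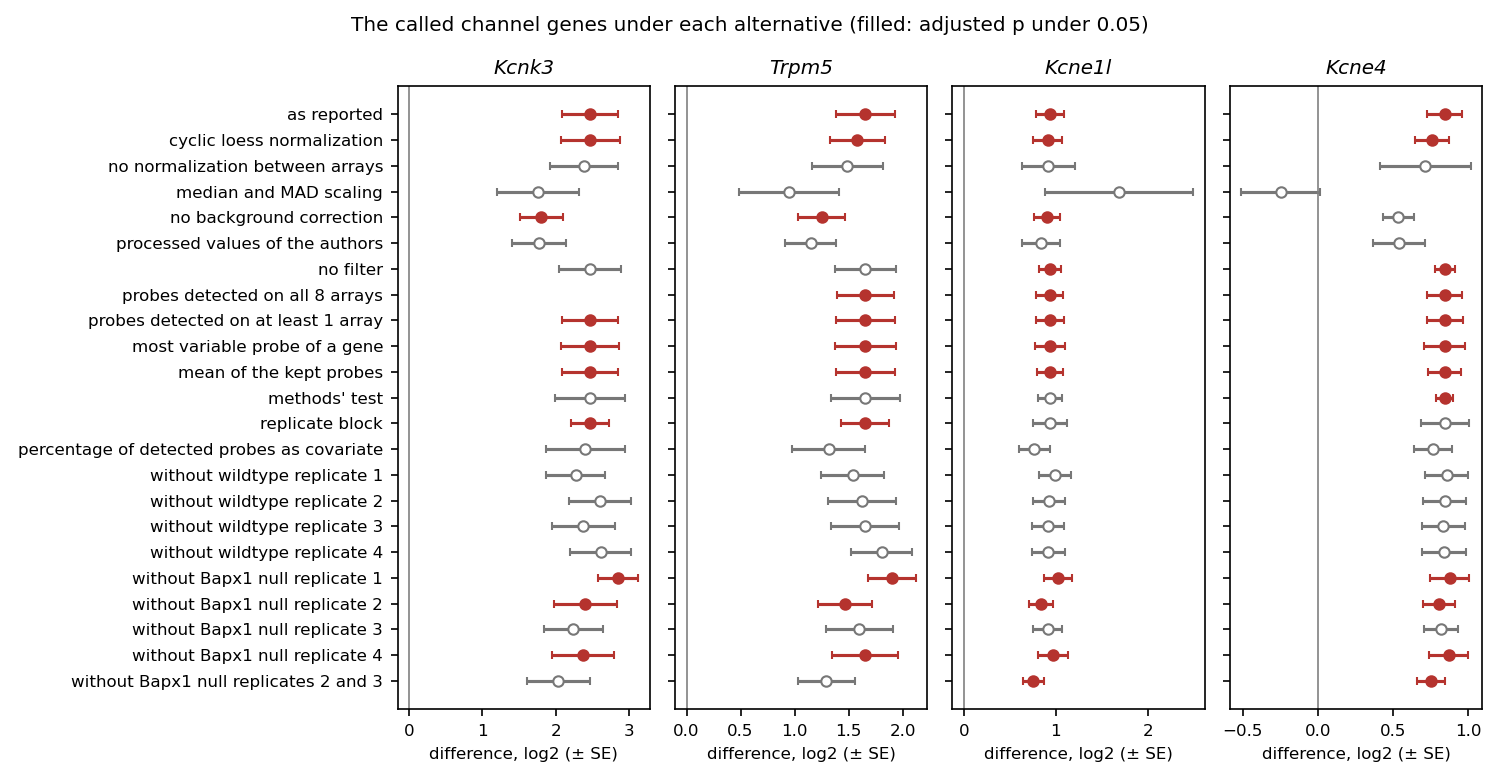
Difference (x axis, log2, Bapx1 null minus wildtype, ± SE) of the 4 called channel genes under the reported and the alternative settings (y axis), filled where the adjusted p was under 0.05. For no normalization, median and MAD scaling and the processed values, the median of all genes is subtracted from the point while the p is that of the difference before subtraction, and Kcnk3 has no point for probes detected on all 8 arrays. All points lie above 0 except that of Kcne4 with median and MAD scaling (-0.25).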

How the data were processed

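Intensities were measured on 8 arrays, 4 of each genotype. The authors deposited linear signal intensities of single probes, exported with GenomeStudio (version not given in the sources used here), with no background subtraction (lowest value 29.8) or normalization between arrays. Beside it the authors deposited a detection score as a fraction between 0 and 1, which followed the signal (Spearman correlation across probes of at least 0.976) and 1 minus this score was used as detection p. The authors also deposited processed values on a log2 scale, which equalled the log2 intensity minus the array median and a baseline per probe. What that baseline was taken over stays unknown, and their column medians were -0.0112 to 0.0145. Both tables were joined on differences between arrays over 45281 rows (largest distance 2.78e-06, next row at least 0.0151), and probes were named from the platform annotation: 34885 had 1 symbol, 18 several and 10378 none here. Symbols compared with a RefSeq table of GRCm38.p6 were not altered, and 78 probes were not in it.

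Intensities were background corrected (limma 3.58.1 in R 4.3.3, nec, offset 16), quantile normalized and log2 transformed. The offset pulls dim probes together. Without background correction the called channel genes differed by less (1.80 for Kcnk3, 1.25 for Trpm5, 0.90 for Kcne1l and 0.53 for Kcne4). Whether the reported folds of dim genes are too small or too large was not tested. Probes with a detection p under 0.01 on at least 4 arrays were kept, and the brightest kept probe on average stood for its gene. Genotypes were compared with limma (lmFit, eBayes) in a model of genotype alone, and p-values were adjusted over 9784 genes by Benjamini-Hochberg. The fit was tested on simulated data. The number of arrays limits the precision. Embryos behind each replicate were not given, so p-values measure the spread between these samples.

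The members and lists were chosen with earlier results of these data known. Named genes were Kcnk3 and Trpm5, channel genes past the threshold or without overlap, any gene detected on all arrays of 1 genotype and none of the other, up to 2 per family with the smallest p and, of the transport genes, those past the threshold and up to 4 with the smallest p. Alternatives varied background, normalization, filter, probe choice, test, covariates and arrays.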

Additional observations from a re-analysis of the deposited data

Results flagged for a closer look

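The Kcne1l level of wildtype replicate 1 (9.84) lay apart from the other wildtype arrays, which were at 9.60 to 9.63, with a gap of 0.844 of the whole range, past Dixon's limit for 4 samples. It was 1 of 46 groups of 4 arrays examined, and chance alone marks about 1 in 20. Without this array Kcne1l differed by 0.99 (limma, adjusted p = 0.0793, with a range of 0.0249 to 0.313 over 22 settings).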

How the results depend on the processing

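The count of channel genes called higher (4) was 4 with cyclic loess, with probes detected on at least 1 array, with the most variable probe and with the mean of the kept probes. It was 3 without background correction and with probes detected on all 8 arrays. It fell to 0 without normalization between arrays (45 of all genes called), 0 with median and MAD scaling (0 of all genes by limma, 5067 at an unadjusted p under 0.05), 0 with the processed values (8), 2 without a filter (49), 1 with the methods' test (4), 0 with the percentage of detected probes as covariate (2) and 2 without Bapx1 null replicates 2 and 3 (66, against 78 as reported). With the replicate number as a block it was 2, Kcnk3 and Trpm5, with 50 of all genes. Same-numbered arrays deviated together in replicate 1 only (correlations 0.148, -0.173, -0.056 and -0.136). These few weak values cannot decide whether the numbers pair the samples. The count called lower was 0 in these settings. Leaving out 1 array gave 0 to 8 higher (0 without any 1 wildtype array or Bapx1 null replicate 3, 8 without Bapx1 null replicate 4), 0 to 1 lower (Kcnab1, without Bapx1 null replicate 1 or 4) and 4 to 1199 of all genes. The cause was not tested. Without normalization, with the scaling and with the processed values the median of all genes was -0.45, 1.05 and -0.25, and differences there are relative to it, while the test is of the difference before this subtraction. Relative to it, scaling reversed Cacna1h (0.86), Kcne4 (-0.25), Kcnmb1 (-0.13), Kcnn1 (-0.89), Kcnq1ot1 (0.54), Kcnu1 (-0.58), Scn2b (-0.24) and Trpm7 (-0.97). Other reversals were Cacna1g (-0.067), Trpc4ap (-0.016) and Trpm7 (-0.74) with the most variable probe, Trpm7 (-0.33) with the mean of probes, Kcnn1 (-0.044) and Kcnu1 (-0.11) with the covariate, and Kcnn1 (-0.017) and Kcnu1 (-0.11) without Bapx1 null replicates 2 and 3. Leaving out 1 array reversed Cacna1h (-0.20 to 0.011), Kcnq1ot1 (-0.12 to 0.039) and Trpm7 (-0.096 to 0.21). Of 477 values of named genes under an alternative, 404 kept direction and call, 45 lost the call, 6 gained it and 22 reversed. The 404 include genes that were not called as reported and stayed so. The called genes passed in 9 of 21 settings (Kcnk3), 10 of 22 (Trpm5), 11 of 22 (Kcne1l) and 11 of 22 (Kcne4). The array as a block was not run, since no header names the BeadChip.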
